A study of Mus musculus with 18 samples.

Results

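Red blood cell transcripts were measured in 18 subcutaneous B16F10 melanomas of female C57BL/6 mice through 6 genes of 41079 in the expression table. These are the adult alpha globin copies Hba-a1 and Hba-a2, the adult beta globin copies Hbb-bs and Hbb-bt, Alas2, and Slc4a1. They were chosen by name as erythroid genes, not by their values, and 5 of the 6 passed the filter for testing, a mean of at least 1 FPKM (fragments per kilobase of gene per 1000000 fragments). Slc4a1, at a mean of 0.903 FPKM, did not. B16F10 is a pigmented mouse melanoma line, and each tumor, 3 per group, received its injections into the tumor itself. Treatment began on day 6, at a volume near 50 mm3, and was repeated every 2 days, and the tumors were taken 48 h after the last injection. The PBS group received buffer alone. Free PS473 was the naked ribozyme, a self-cleaving type of RNA redesigned to cut the PD-L1 messenger RNA, and PS473@CPs was the same ribozyme carried by cationic polymers. NKMOF-101-[Mn] was the empty manganese metal-organic framework, M5@NKMOF-101-[Mn] the framework loaded with an inactive mutant ribozyme, and PS473@NKMOF-101-[Mn] the framework loaded with the active ribozyme. The titles of the last group write the framework as NKMOF-102-[Mn], while the treatment description writes NKMOF-101-[Mn], which is used here. The labels give no age, no batch and no word on pooling of animals, so the tests below measure the spread between these samples.

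Adult hemoglobin is a tetramer of alpha and beta globin chains, each holding a heme group. Alas2 is the erythroid form of the enzyme that starts heme synthesis, and Slc4a1 encodes band 3, the anion exchanger of the red cell membrane. Circulating mouse reticulocytes, the youngest red cells, still carry these messenger RNAs after their nucleus is lost, so the transcripts reach a bulk tissue sample with the blood it holds. In such bulk samples, fewer red cells and less RNA per red cell cannot be told apart.

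The copies within each globin pair have nearly the same coding sequence, which limits how their levels can be read. In GENCODE M21 (mouse build GRCm38) Hba-a1 lies at chr11:32283511-32284465 and Hba-a2 at chr11:32296489-32297298, both on the plus strand. Their coding sequences are 429 bases long and differ at 1 position, C381T, counted from the A of the start codon, which turns codon 127 from GAC into GAT. Hbb-bs lies at chr7:103826534-103828096 and Hbb-bt at chr7:103812524-103813996 on the minus strand, with coding sequences of 444 bases that differ only by C417T, codon 139 from GCC to GCT. The stretches of 60 coding bases around these positions are shown with the differing base in capitals, since a fragment elsewhere in the coding sequence cannot be assigned to one copy by its bases.
Hba-a1: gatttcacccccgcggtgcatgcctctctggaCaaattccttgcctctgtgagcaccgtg
Hba-a2: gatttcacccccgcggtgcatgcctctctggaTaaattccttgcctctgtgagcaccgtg
Hbb-bs: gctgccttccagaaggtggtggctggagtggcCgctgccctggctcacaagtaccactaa
Hbb-bt: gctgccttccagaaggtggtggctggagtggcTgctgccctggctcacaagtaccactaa
The split of coding fragments between copies therefore depends on the authors' counting, and the division within each pair is uncertain. The untranslated parts of the messages were not compared. The other erythroid genes have no such copy here: Alas2 lies at chrX:150547375-150570638 on the plus strand and Slc4a1 at chr11:102348824-102366203 on the minus strand.

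Promoter stretches are shown for Hba-a2, Hbb-bs and Alas2, and the 47 bases of Hbb-bt outside annotated exons are not printed. A link between these sequences and the shared variation described below was not tested. RefSeq promoter windows (GRCm38.p6) were found for 5 of the 6 genes. The stretches printed lie upstream of the RefSeq start and outside annotated exons, read 5′ to 3′ on the strand of the gene, with capitals marking matches to 4 motifs searched on both strands.
Hba-a2, chr11:32296372-32296488, plus strand: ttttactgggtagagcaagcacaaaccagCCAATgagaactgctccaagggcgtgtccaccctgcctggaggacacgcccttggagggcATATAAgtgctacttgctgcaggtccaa
Hbb-bs, chr7:103827929-103828011, minus strand: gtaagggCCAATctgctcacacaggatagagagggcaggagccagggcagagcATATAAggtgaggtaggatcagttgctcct
Alas2, chrX:150547297-150547374, plus strand: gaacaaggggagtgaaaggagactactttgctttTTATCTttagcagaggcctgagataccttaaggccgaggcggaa
In the 120 bases before the start, the TATA-like letters ATATAA stood in 4 of the 5 windows, all 4 globins, against 4.47% of 32851 promoters. CCAAT stood in the same 4 of 5, against 21.3%. The letters CCNCNCCC, a core of the sites that Klf1 and related factors bind, stood in 3 of 5 against 34.6%, in Hbb-bs, Hbb-bt and Alas2. All these counts cover the full 120 bases, including parts inside annotated exons that are not printed, which for Hba-a1 is the whole window. The CCNCNCCC matches of Hbb-bs, at -93, and of Alas2, at -42 to -26, lie in such unprinted parts. The letters of GATA factors, searched as AGATAA and TGATAA and with a final G in place of A, stood in 1 of 5 against 12.8%, in Alas2, where the match lies on the reverse strand. Over 250 bases, GATA letters stood in 4 of 5 windows against 26.5% of promoters, the added ones being Hba-a1, Hba-a2 and Hbb-bs. The upstream sequences of Hba-a1 and Hba-a2 were identical over the 247 bases compared, so their windows are not independent examples.

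Depth was similar across the tumors, between 17212000 and 28401000 fragments assigned to genes, recovered from the steps between low FPKM values. Melanocyte genes were high in every tumor, with Dct, a melanin synthesis enzyme, at 2087 to 3416 FPKM and Pmel, the melanosome fibril protein, at 893 to 1836 FPKM. Keratin 14, a marker of basal skin, ran from 0 to 2058 FPKM, so skin transcripts differed widely between the pieces, with r = -0.06 to summed globin.

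Alpha globin ranged from one of the most abundant messages of a tumor to a modest one. Hba-a1 stood at 5339, 451 and 667 FPKM in PBS tumors 1 to 3, and at 4436, 706 and 2472 FPKM in Free PS473 tumors. In the PS473@CPs tumors it stood at 22.9, 834 and 73.5 FPKM. The PS473@CPs group thus held 2 of the 3 lowest tumors, beside a tumor at 834 FPKM that lay above 2 of the PBS tumors. Hba-a1 was 953, 163 and 1097 FPKM with the empty NKMOF-101-[Mn] and 265, 2518 and 1466 FPKM with M5@NKMOF-101-[Mn]. With PS473@NKMOF-101-[Mn] it was 2769, 15.4 and 1541 FPKM, so that the lowest tumor of all shared a group with one of the 3 highest. The highest tumor carried 347-fold more Hba-a1 than the lowest.

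Hba-a2 followed nearly the same order of tumors (rho = 0.998) at a lower level. It read 841, 52.1 and 64.0 FPKM in PBS, 592, 67.5 and 269 FPKM in Free PS473, and 2.99, 79.8 and 14.2 FPKM in PS473@CPs. It read 92.7, 18.7 and 112 FPKM in NKMOF-101-[Mn], 31.5, 315 and 150 FPKM in M5@NKMOF-101-[Mn], and 294, 1.99 and 181 FPKM in PS473@NKMOF-101-[Mn]. Within a tumor the FPKM ratio of Hba-a1 to Hba-a2 stayed between 5.17 and 10.5, while the copies varied 347-fold and 423-fold between tumors. That ratio carries the uncertainty of the split between copies.

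Beta globin matched alpha globin tumor by tumor. Hbb-bs was 6668, 447 and 476 FPKM in PBS, 3132, 553 and 2966 FPKM in Free PS473, and 17.3, 580 and 45.4 FPKM in PS473@CPs. It was 792, 130 and 861 FPKM in NKMOF-101-[Mn], 209, 2636 and 1591 FPKM in M5@NKMOF-101-[Mn], and 2064, 22.5 and 1128 FPKM in PS473@NKMOF-101-[Mn]. PBS tumor 1 was again highest, and PS473@CPs tumor 1 and PS473@NKMOF-101-[Mn] tumor 2 were again the lowest pair. Hbb-bt was 954, 42.7 and 54.8 FPKM in PBS, 378, 54.5 and 481 FPKM in Free PS473, and 1.44, 63.3 and 3.03 FPKM in PS473@CPs. It was 82.4, 14.5 and 93.2 FPKM in NKMOF-101-[Mn], 23.7, 320 and 163 FPKM in M5@NKMOF-101-[Mn], and 242, 1.08 and 146 FPKM in PS473@NKMOF-101-[Mn]. Its highest tumor stood 887-fold above its lowest, against 385-fold for Hbb-bs, and the FPKM ratio of Hbb-bs to Hbb-bt ran from 6.17 to 20.9.

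**Figure D1:**
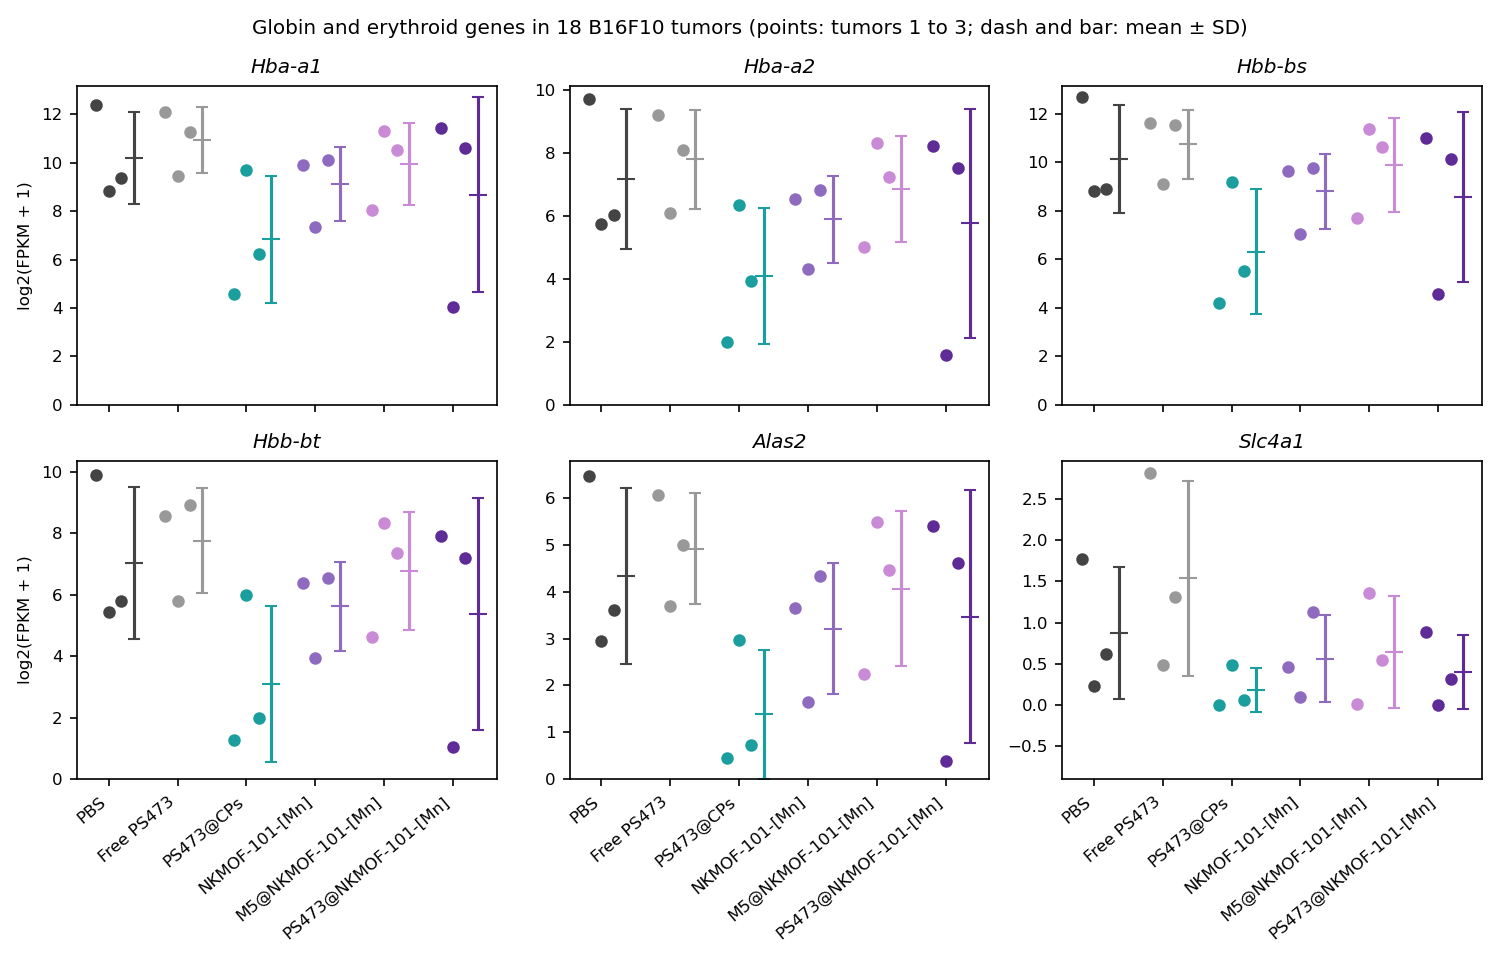
Level of each gene as log2(FPKM + 1) on the vertical axis, by treatment group on the horizontal axis, with 1 point per tumor and a dash and bar for the mean ± SD of 3 tumors. In every panel the PBS and Free PS473 points reach highest, and in the globin and Alas2 panels the PS473@NKMOF-101-[Mn] points split into 2 high tumors and 1 low tumor, with Hba-a1 at 2769, 1541 and 15.4 FPKM.

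Summed over both pairs, adult globin made up 0.00248% to 0.832% of the fragments of a tumor, with a median of 0.103%. The summed level ran from 41.0 FPKM in PS473@NKMOF-101-[Mn] tumor 2 to 13802.5 FPKM in PBS tumor 1, a 337-fold range. In PBS tumor 1 and Free PS473 tumor 1, 1 gene in the whole table lay above the most abundant globin, whereas in PS473@CPs tumor 1, 2601 genes did. The ratio of summed alpha to summed beta globin, which does not depend on the split within pairs, stayed between 0.736 and 1.81 with a median of 1.27. Alpha exceeded beta in 13 of 18 tumors, and the exceptions included the tumor with the most globin (0.811) and the one with the least (0.736).

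Alas2, the rate-limiting heme enzyme of erythroid cells, showed the pattern of the globins at a lower level. It was 87.4, 6.71 and 11.1 FPKM in PBS, 66.0, 11.9 and 30.7 FPKM in Free PS473, and 0.377, 6.80 and 0.650 FPKM in PS473@CPs. It was 11.5, 2.12 and 19.1 FPKM in NKMOF-101-[Mn], 3.75, 43.5 and 20.9 FPKM in M5@NKMOF-101-[Mn], and 41.0, 0.305 and 23.4 FPKM in PS473@NKMOF-101-[Mn]. Its highest and lowest values fell in the same tumors as those of summed globin, 286-fold apart. Per 1000 FPKM of summed globin, Alas2 lay between 4.36 and 8.84 FPKM in all 18 tumors, a 2.03-fold range beside the 337-fold range of globin itself.

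Slc4a1 was the scarcest of the 6. It was 2.41, 0.169 and 0.538 FPKM in PBS, 6.04, 0.403 and 1.47 FPKM in Free PS473, and listed at 0, 0.403 and 0.0426 FPKM in PS473@CPs. It was 0.377, 0.0692 and 1.19 FPKM in NKMOF-101-[Mn], 0.0128, 1.57 and 0.460 FPKM in M5@NKMOF-101-[Mn], and 0.846, listed at 0, and 0.247 FPKM in PS473@NKMOF-101-[Mn]. The values of 0 fell in the 2 tumors with the least globin, where 3 fragments, the most that a count of 0 readily allows, would read as 0.0327 and 0.0314 FPKM. Such a limit covers counting error only. Free PS473 tumor 1 was highest, not PBS tumor 1, and held 0.707 FPKM of Slc4a1 per 1000 FPKM of globin, the largest proportion of the 18.

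**Figure D2:**
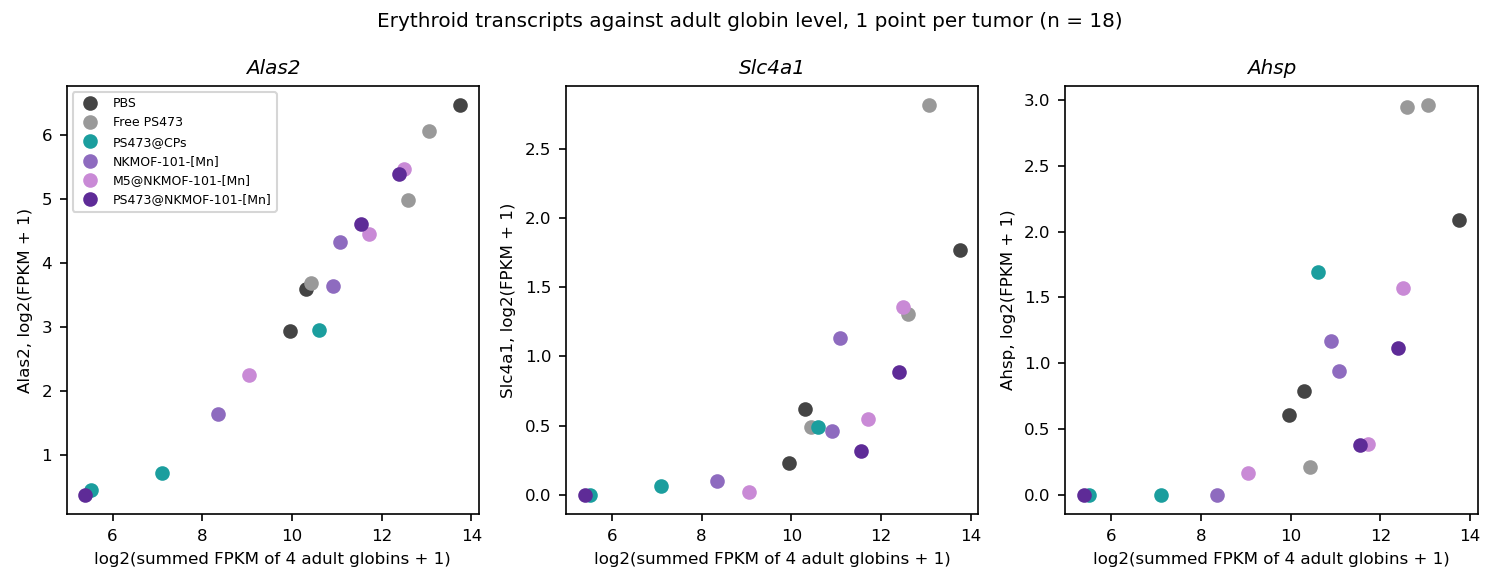
Level of Alas2, Slc4a1 and Ahsp as log2(FPKM + 1) on the vertical axes against log2 of the summed FPKM of the 4 adult globins + 1, with 1 point per tumor colored by group. Alas2 follows a narrow line with r of 0.98, while Slc4a1 (r of 0.75) and Ahsp (r of 0.74) lie near 0 in the tumors with least globin and spread at high globin.

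The variation lay mainly between tumors of the same group. The SD within groups of log2(FPKM + 1) was 2.38 for Hba-a1, 2.24 for Hba-a2, 2.31 for Hbb-bs, 2.43 for Hbb-bt and 1.77 for Alas2, against a median of 0.18 over the 12357 genes tested. These SDs ranked 34, 43, 38, 33 and 61 from the top among those genes. Slc4a1, with a within-group SD of 0.71, was outside the ranking. Of the summed squares of the 5 tested genes, 30.0% to 37.7% lay between the 6 groups, beside 23.3% for the median gene. Within single groups the globin sum ranged 131-fold in PS473@NKMOF-101-[Mn], 34.9-fold in PS473@CPs, 13.9-fold in PBS, 11.0-fold in M5@NKMOF-101-[Mn], 6.63-fold in NKMOF-101-[Mn] and 6.18-fold in Free PS473.

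The order of the group means of log2 Hba-a1 was Free PS473 (10.95 ± 1.35, SD, n = 3), PBS (10.20 ± 1.91), M5@NKMOF-101-[Mn] (9.96 ± 1.69), NKMOF-101-[Mn] (9.12 ± 1.53), PS473@NKMOF-101-[Mn] (8.69 ± 4.05) and PS473@CPs (6.84 ± 2.62). Neighbors in that order differed by less than the SD of either group. The moderated F test of limma over all 6 groups gave p of 0.184 to 0.338 for the 5 genes and an adjusted p of 1.00 for each after Benjamini-Hochberg adjustment. None of the 5 was called, where the background was 0% of 12357 genes, and Slc4a1 gave an adjusted p of 1.00 by limma with a filter at 0.1 FPKM. At an unadjusted p under 0.05 that F test took 1.99% of all genes and none of the 5.

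The lowest levels relative to PBS were those of PS473@CPs. The log2 difference from PBS was -3.36 for Hba-a1 (SE 1.77, 95% interval -7.13 to 0.41), -3.07 for Hba-a2, -3.83 for Hbb-bs, -3.95 for Hbb-bt and -2.96 for Alas2 (SE 1.31, interval -5.76 to -0.15). The adjusted p was 1.00 for each by limma with Benjamini-Hochberg adjustment, and 0 of 5 were called against 0% of all genes. The unadjusted limma p was 0.0416 for Hbb-bs, 0.0456 for Hbb-bt and 0.0402 for Alas2, so 3 of 5 fell under 0.05, against 2.09% of all genes. These 3 genes vary as one across the tumors and are not separate pieces of evidence. PS473@CPs tumor 2 stood above PBS tumors 2 and 3 in all 4 globins and above PBS tumor 2 in Alas2, so the groups overlapped in 5 of 5 genes, where 5.11% of all genes did not overlap. Without PBS tumor 1 the Alas2 difference was -1.89, and without PS473@CPs tumor 2 it was -3.75. Slc4a1 differed by -0.69 with an SE of 0.53.

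In the other comparisons against PBS, which share those control tumors, none of the 5 genes reached an unadjusted limma p under 0.05 and none had groups that did not overlap. Free PS473 differed from PBS by 0.76 in log2 Hba-a1 and 0.58 in Alas2, where 1.81% of all genes passed the unadjusted level and 4.91% did not overlap. NKMOF-101-[Mn] differed from PBS by -1.08 and -1.13, beside shares of all genes of 1.46% and 6.02%. M5@NKMOF-101-[Mn] differed from PBS by -0.24 and -0.28, beside 1.51% and 8.11%. PS473@NKMOF-101-[Mn] differed from PBS by -1.51 and -0.88, beside 2.1% and 4.66%. None of these differences exceeded its SE of 1.77 for Hba-a1 and 1.31 for Alas2. With 3 tumors a group, the 95% interval of the Hba-a1 difference between PS473@NKMOF-101-[Mn] and PBS ran from -5.28 to 2.27. That range holds both lower and higher levels than in PBS, so the direction of a change was not determined.

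The active ribozyme in the framework was also set against each other treatment, again with 0 of 5 genes at an unadjusted limma p under 0.05 and 0 of 5 without overlap. PS473@NKMOF-101-[Mn] differed from Free PS473 by -2.26 in log2 Hba-a1 and -1.45 in Alas2, where 4.98% of all genes passed the unadjusted level and 6.82% did not overlap. It differed from PS473@CPs by 1.85 and 2.08, beside 2.29% and 4.12% of all genes, and by 0.48 to 4.18 and 1.12 to 3.62 when 1 tumor was left out. It differed from the empty framework by -0.43 and 0.26, beside 2.3% and 7.91%. It differed from the framework with the inactive M5 ribozyme by -1.27 and -0.60, beside 0.591% and 4.48%. The interval of the last Hba-a1 difference, which compares active with inactive ribozyme in the same carrier, was -5.04 to 2.50. Adjusted p lay between 0.960 and 1 over the 45 differences of the 5 genes in 9 comparisons by limma with Benjamini-Hochberg adjustment. One tumor set most of these values: without PS473@NKMOF-101-[Mn] tumor 2 the Hba-a1 difference from PBS became 0.82, that from NKMOF-101-[Mn] 1.89, that from M5@NKMOF-101-[Mn] 1.06 and that from Free PS473 0.06. Slc4a1 also had overlapping groups in all 9 comparisons. Its largest difference was -1.14, in PS473@NKMOF-101-[Mn] against Free PS473, by limma with the filter at 0.1 FPKM. The 95% interval was -2.28 to 0.008, and the limma p was 0.051 unadjusted and 0.972 adjusted.

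**Figure D3:**
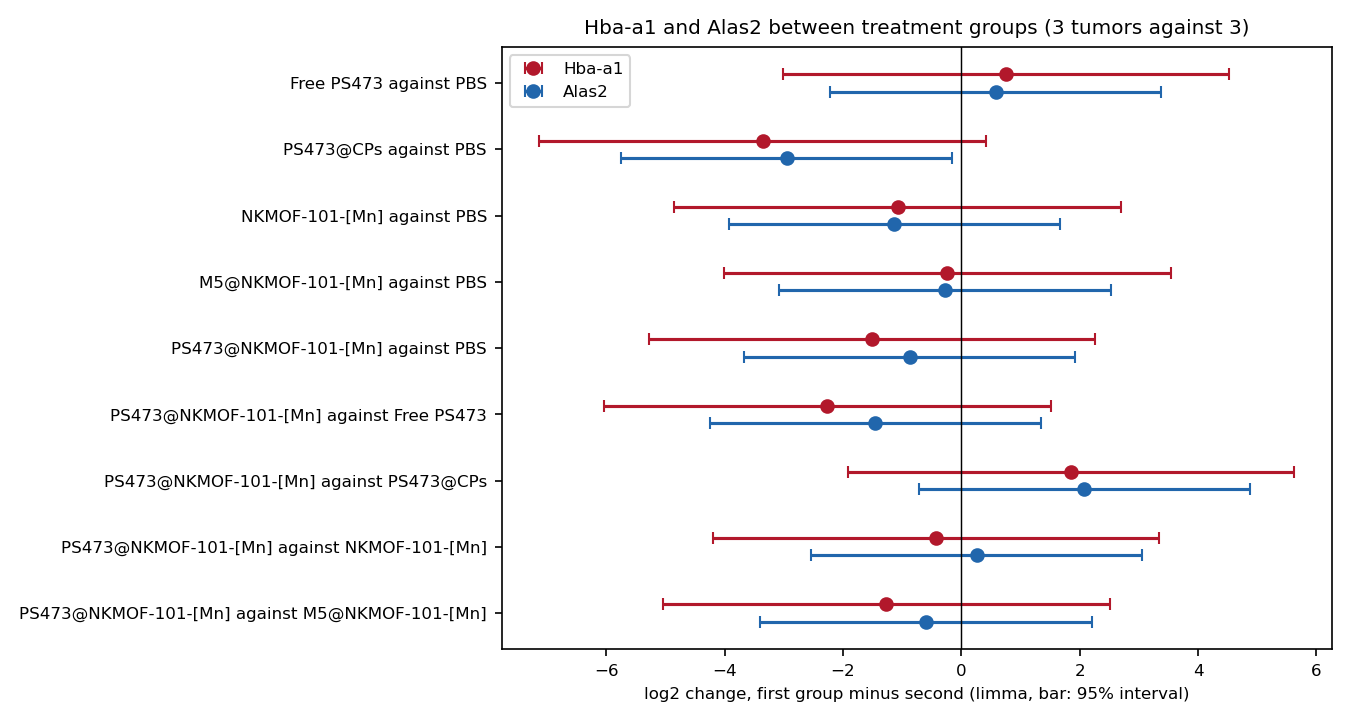
Log2 difference in Hba-a1 and Alas2 between groups of 3 tumors on the horizontal axis, for 9 comparisons on the vertical axis, with bars for 95% intervals from limma. The intervals cross 0 for both genes in every comparison but 1, Alas2 in PS473@CPs against PBS (-5.76 to -0.15), which did not pass after adjustment.

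The 6 genes varied together from tumor to tumor. Over the 18 tumors the 6 pairs of globins correlated with r of 0.984 to 0.997 and rho of 0.981 to 0.998 in log2(FPKM + 1). The pair Hba-a1 and Hba-a2 (r = 0.992) and the pair Hbb-bs and Hbb-bt (r = 0.997) share most of their coding sequence, but Hba-a1 and Hbb-bs, which do not, reached r = 0.990. Alas2 correlated with the globins at r of 0.973 to 0.980. Slc4a1 correlated with the other 5 at r of 0.745 to 0.811 and at rho of 0.900 to 0.917, and with a pseudocount of 0.1 at r of 0.872 to 0.894. All 15 pairs had a two-sided permutation p, adjusted over the 15 pairs by the Benjamini-Hochberg method, of 1.5e-05 to 0.00067 for r. The smallest unadjusted p that 100000 permutations can give is 1e-05.

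The shared variation was present inside the groups. On deviations from group means, r was 0.981 to 0.995 between globins, 0.970 to 0.979 between Alas2 and globins, and 0.680 to 0.793 for Slc4a1. Leaving out the 2 tumors farthest from the median of the first gene of a pair left r between 0.758 and 0.997.

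Other globin genes were nearly silent. The table held 6 embryonic and theta-like globin genes of the list, of which Hbb-bh1, Hbb-bh2 and Hba-x were listed at 0 in all 18 tumors. Hbb-y, the embryonic epsilon-like globin, did not exceed 0.427 FPKM. Hbq1b, a theta globin, ranged from 0 to 2.32 FPKM and correlated with summed adult globin at r = 0.64, and Hbq1a ranged from 0 to 0.744 FPKM with r = 0.64. Correlations with lists and single genes are descriptions over the same 18 libraries, with no test.

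Of the heme pathway, Alas2 moved with globin and most of its partners did not. The mean of the 8 other heme synthesis genes correlated with globin at r = 0.068. Alas1, the housekeeping counterpart of Alas2, stayed between 9.99 and 23.4 FPKM (r = -0.41). Fech, which inserts iron into heme, varied only from 14.8 to 23.9 FPKM but correlated at r = 0.66. Of 9 genes of the pathway, 8 were tested and 0 were called in any of the 9 comparisons, beside 0% of all genes in each.

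Membrane and maturation genes of red cells followed globin in part. Of 14 membrane genes, 6 had r above 0.5, among them Slc4a1 (r = 0.75) and Epb41 (protein 4.1, r = 0.50). Gypc and Rhd, at 2.96 to 4.94 and 2.70 to 5.91 FPKM, had r of -0.15 and 0.18. Of 19 genes for red cell enzymes and maturation, 7 had r above 0.5: Ahsp, Car2, Bpgm, Bnip3l, Trim10, Tent5c and Tspo2. The most abundant of that list did not, with Prdx2, a peroxide-removing enzyme, at r = 0.36, Trf, transferrin, at -0.35, and Tfrc, the transferrin receptor, at 0.18. As a mean over its genes this list followed globin at r = 0.80 and the membrane list without Slc4a1 at r = 0.71. Of these lists, 3 of 14 and 13 of 19 genes were tested, and 0 were called in any comparison, as were 0% of all genes in each.

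Regulators of erythropoiesis followed the globins less closely than the red cell lists did in these values. Their mean over 11 genes, of which 4 reached a mean of 1 FPKM, correlated with globin at r = 0.26, and at r = 0.54 with a pseudocount of 0.1. Ldb1, Zbtb7a, Zfpm1 and Tal1, the most abundant, nuclear factors, had r between -0.16 and -0.02. The scarcer nuclear factors of the list had r of 0.48 (Gata1), 0.25 (Klf1), 0.18 (Nfe2), 0.01 (Lmo2), -0.05 (Gfi1b) and -0.12 (Bcl11a). Gata1 did not exceed 0.217 FPKM and Klf1 ran from 0.141 to 0.726 FPKM. Epor, the erythropoietin receptor at the cell surface, had r = 0.60 at 0.256 to 0.783 FPKM.

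Markers of other blood and tumor compartments were set beside the globin level. The mean of 14 platelet genes had r = 0.22, that of 14 neutrophil genes 0.12, of 14 endothelial genes 0.15 and of 10 leukocyte genes -0.11. Genes that bind or clear hemoglobin and heme had r = 0.24, with Hmox1, which degrades heme, at 29.6 to 124 FPKM and r = 0.49. Melanocyte genes had r = -0.25, skin epithelium -0.07, skeletal muscle -0.35 and adipocyte genes -0.09. Pf4, the platelet chemokine, reached 49.1 FPKM and S100a8, abundant in neutrophils, 252 FPKM, with r of 0.20 and 0.17 to globin. The part of these compartments in the globin differences was not tested.

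**Figure D4:**
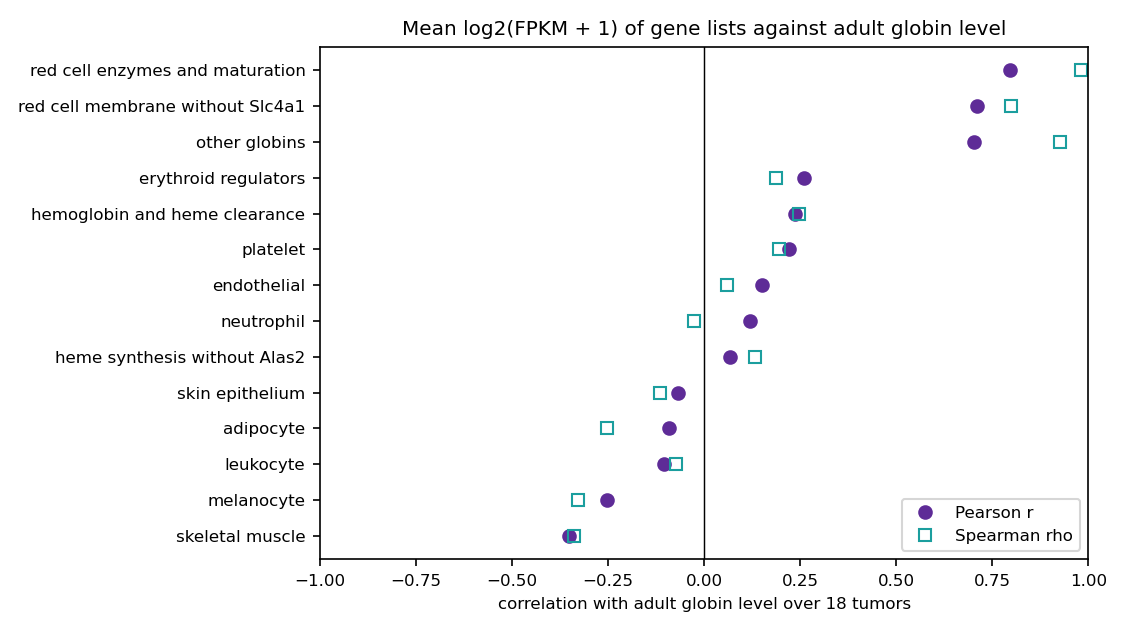
Pearson r (filled circles) and Spearman rho (open squares) on the horizontal axis, between the mean log2(FPKM + 1) of each gene list on the vertical axis and log2 of summed adult globin + 1 over 18 tumors. The 3 red cell lists at the top lie at r of 0.70 to 0.80, and the other lists between -0.35 and 0.26.

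Among the other 12352 tested genes, those whose log2 level was most like summed globin over the 18 tumors were Car2 (r = 0.82), Tent5c (0.81), Marchf2 (0.78), Bpgm (0.77), Prelid2 (0.75), Ahsp (0.74), Fam220a (0.73), Ddit4 (0.73), B430319G15Rik (0.73) and Dubr (0.71). Car2, the carbonic anhydrase II gene, ran from 0.124 to 4.72 FPKM, with its lowest value in PS473@CPs tumor 1 and its highest in Free PS473 tumor 1. Ahsp, the chaperone of free alpha globin, ran from 0 to 6.77 FPKM and was also highest in Free PS473 tumor 1. It was listed at 0 in PS473@CPs tumors 1 and 3, NKMOF-101-[Mn] tumor 2 and PS473@NKMOF-101-[Mn] tumor 2. Bpgm makes the red cell metabolite that lowers the oxygen affinity of hemoglobin, and ran from 16.1 FPKM in PS473@NKMOF-101-[Mn] tumor 2 to 44.0 FPKM in PBS tumor 1. Among 5954 genes with a mean of 0.1 to 1 FPKM, those most like globin included Aldh1a1 (r = 0.79), followed by 1700104B16Rik, Apol11b, Gm39214, Apex2, Tspo2, Creb3l4, A330041J22Rik and Cacna2d1 at 0.75 down to 0.67.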

How the data were processed

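Poly(A) RNA of 18 tumors, 3 in each of 6 groups taken from the sample titles, was sequenced, and the authors deposited FPKM values for 41079 genes. The submitters' processing notes name genome build GRCm39, and the aligner and counter are not given in the sources used here. FPKM values were used by gene name, while sequences and positions come from GENCODE M21 and RefSeq on GRCm38. No columns were left out, and no pair of tumors held identical values.

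The depth (17212000 to 28401000 fragments) was recovered from steps between low values. Only 47.1% to 51.3% of low values (under 20 fragments) were whole numbers of fragments within 0.02, while 98.2% to 99.0% were multiples of 0.25, so no count model was used.

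Values were transformed to log2(FPKM + 1), which understates changes of low genes. The 12357 genes averaging 1 FPKM or more over all tumors went into 1 fit in limma 3.58.1 (R 4.3.3) with 1 mean per group and a trend in the prior variance, tested on simulated data first. A call needed an adjusted p (Benjamini-Hochberg over all genes) under 0.05 and an absolute log2 change above 1. Correlations used Python 3.11.15, numpy 2.4.6 and scipy 1.17.1. Alternatives were another pseudocount, filters, scalings, a fit of 2 groups alone, no trend, a replicate block, and leaving out each tumor.

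Named genes were the 6 erythroid genes, up to 4 genes per list with the highest mean FPKM, and the 10 genes most like globin in each of 2 classes of level. Other list genes (Bnip3l, Trim10, Epor, the scarcer erythroid regulators and the defining genes at 0) were added with their values in view. The genes and lists were chosen with earlier results of these data known. Of the listed names, Hbb-b1, Hbb-b2, Hbb-bh0, Hrg1 and Lor had no row. Some list genes that the rule names are not reported here.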

Additional observations from a re-analysis of the deposited data

How the results depend on the processing

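The 0 calls among the erythroid genes held under every alternative run, with F-test adjusted p of 1.00 throughout (limma, Benjamini-Hochberg). With no filter the F test called 4 genes, Gm12790, Gm23749, Gm30953 and Serpina1a. For PS473@CPs against PBS, fitting those groups alone called 1 gene, Gm4786, and leaving out a tumor gave 0 to 1 genes (ND4L, without PS473@CPs tumor 3). None is erythroid. Another scaling moved the median of all genes by at most 0.063 in log2, and the differences of the erythroid genes by -0.12 to 0.22. With a pseudocount of 0.1, Alas2 in PS473@NKMOF-101-[Mn] against NKMOF-101-[Mn] became -0.11, and the cause was not tested.

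Leaving out each tumor turned the sign of 19 values and kept that of 107. The values were those of Hba-a1 and Alas2, and of all 5 tested genes in PS473@CPs against PBS. Among those turned were differences of over 1 in log2. Against PBS, Free PS473 ran from -0.12 to 1.64 in Alas2, NKMOF-101-[Mn] from -1.76 to 0.017 in Hba-a1, and M5@NKMOF-101-[Mn] from -0.93 to 0.85 in Hba-a1 and -0.99 to 0.78 in Alas2. PS473@NKMOF-101-[Mn] against PBS ran from -2.88 to 0.82 in Hba-a1 and -1.84 to 0.66 in Alas2. PS473@NKMOF-101-[Mn] ran from -3.64 to 0.062 and -2.42 to 0.087 against Free PS473, from -1.81 to 1.89 and -0.71 to 1.80 against NKMOF-101-[Mn], and from -2.64 to 1.06 and -1.56 to 0.94 against M5@NKMOF-101-[Mn], in Hba-a1 and Alas2. These fits hold fewer tumors by construction, and most extremes came without PBS tumor 1 or a PS473@NKMOF-101-[Mn] tumor. PS473@NKMOF-101-[Mn] against PS473@CPs stayed positive, from 0.48 to 4.18 and 1.12 to 3.62. PS473@CPs against PBS stayed negative in all 5 genes, from -4.80 to -2.23 in Hba-a1 and -3.75 to -1.89 in Alas2.

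By Spearman rho, likeness to globin rose from r of 0.70 to 0.926 for other globins and from 0.80 to 0.981 for red cell enzymes. For red cell membrane genes it rose from 0.74 to 0.901 with Slc4a1 in the list, and from 0.71 to 0.800 without it. The replicate block called 0 genes in the F test. Same-numbered tumors had correlations of -0.73 to 0.72 in their deviations from group means, with a median of -0.019. The median was 0.31 for number 1, -0.16 for number 2 and -0.021 for number 3. Of the 18 tumors, 6 were closest to their own number. Whether replicate numbers pair the tumors was not tested. Depth limits Slc4a1 most, at 0 in 2 tumors.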

Other observations

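Genes of the response to low oxygen varied with globin across these tumors. After Ddit4 and others were seen among the genes most like globin, a list of 15 low-oxygen response genes was written, with Ddit4 in it. The list was thus chosen with a result in view, which fixed part of the likeness, and is given as a description with no test. All 15 had a positive correlation with summed globin over the 18 tumors, and 13 had r above 0.5, while 179 of the 12352 genes tested did. The median r was 0.62, beside -0.06 for all genes. It was 0.56 on deviations from group means and 0.52 without the 2 tumors of least globin, PS473@CPs tumor 1 and PS473@NKMOF-101-[Mn] tumor 2. Ddit4, a stress-induced inhibitor of mTOR signaling, had r = 0.73, Pfkp, a phosphofructokinase, 0.70, and Pdk1, a pyruvate dehydrogenase kinase, 0.70. Bnip3, a mitophagy receptor, ran from 113 to 423 FPKM (r = 0.69), Car9, a carbonic anhydrase at the cell surface, from 28.8 to 73.3 FPKM (0.61), and Vegfa, the endothelial growth factor, from 29.5 to 79.9 FPKM (0.62). The weakest were Egln3, an oxygen-sensing prolyl hydroxylase, at r = 0.21 and 0.00 without the 2 tumors, and Adm, adrenomedullin, at 0.47. Without those tumors 8 of the 15 had r above 0.5, beside 237 of 12352 genes. P4ha1, Ndrg1, Adm and Slc2a1, at 0.52, 0.52, 0.47 and 0.59 over all tumors, were then at 0.13, 0.21, 0.28 and 0.30.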
